A study of Mus musculus with 26 samples.

Results

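The 8 genes *Lhfpl3*, *C1ql1*, *Pllp*, *Plekhb1*, *Gatm*, *Tmem100*, *3110035E14Rik* and *Pcp4* were taken from the 24349 genes counted in the series. They were picked because they were close to absent in cells of embryonic day (E) 13.5 and high in cells of postnatal day (P) 7, so that step between the stages is their definition and carries no test here. What follows gives their levels on every chip, their distribution over cell classes at P7, and their comparison between brain and spinal cord and between cells labelled at different ages.

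The oligodendrocyte (OL) lineage runs from *Pdgfra*+ oligodendrocyte precursor cells (OPCs) over committed oligodendrocyte precursors (COPs) to newly formed OLs (NFOLs), which begin to wrap axons with myelin. OPCs divide, migrate and receive synaptic input, and on leaving the cell cycle they shut down precursor genes and switch on the lipids and proteins of the myelin sheath. The 8 genes span several of these roles: membrane proteins (*Lhfpl3*, *Pllp*, *Tmem100*), a membrane-associated adaptor (*Plekhb1*), a secreted synaptic ligand (*C1ql1*), an enzyme of creatine synthesis (*Gatm*) and a small regulator of calmodulin (*Pcp4*).

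*Pdgfra*/GFP+ cells were sorted and captured on 26 Fluidigm C1 chips, and each mRNA molecule was counted at its 5′ end with a molecular identifier (STRT-seq). 16 of the assigned chips held cells of *Pdgfra*-H2BGFP mice, a heterozygous knock-in of nuclear GFP on C57BL/6NJ: 6 of E13.5 brain, 3 of E13.5 spinal cord, 2 of P7 brain and 5 of P7 spinal cord. In this line GFP outlasts the *Pdgfra* transcript, so early differentiating cells are sorted along with precursors. The other 9 assigned chips held P7 brain cells of *Pdgfra*-cre-ERT/RCE mice of mixed C57BL/6NJ and CD1 background. In these mice tamoxifen lets Cre switch on a permanent GFP in cells that use the *Pdgfra* promoter at that time. It had been given at E12.5 (txE12.5, 6 chips) or at P3 (txP3, 3 chips), and GFP marks only cells in which Cre had recombined the reporter, and their progeny. Both sexes were used. E13.5 tissue was dissociated mechanically and P7 tissue with papain, so stage and dissociation cannot be told apart.

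The 1297 cells used were 288 of E13.5 brain, 198 of E13.5 spinal cord, 102 of P7 brain, 206 of P7 spinal cord, 326 of txE12.5 brain and 177 of txP3 brain. Molecules summed over the cells of a chip ranged from 56369 to 504603. Levels are given as CPM, the molecules of a gene scaled to a common total per chip, and because each molecule is counted once at its 5′ end they compare between genes without division by length. The chip was taken as the replicate. Chips of 1 experiment may hold cells of 1 suspension, so that p-values measure the spread between chips, part of which may be technical. No experiment held both regions, and no cell profile was shared between chips.

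The label of the genes was checked against the lineage. Clusters built without the 8 genes named 91.18% of P7 brain cells, 90.78% of P7 spinal cord cells, 79.75% of txE12.5 cells and 96.05% of txP3 cells as OL lineage, against 3 of 288 cells of E13.5 brain and 0 of 198 of E13.5 spinal cord. Summed OPC markers lay at 664 to 2483 CPM on the E13.5 chips. On the P7 chips they lay at 4989 to 13068 CPM, except P7 spinal cord chip 23 with 993 CPM. None of the 14 cells of that chip was of the lineage, 13 were named vascular and leptomeningeal (VLMC)-like, and the summed VLMC markers stood at 17882 CPM. Pooled ratios between the stages and the main test between the regions are therefore given with and without chip 23. In sums over a chip, fewer cells of a type and less RNA per cell cannot be told apart.

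Promoter sequence from RefSeq (GRCm38.p6) matched 5 of the 8 genes. The 250 bases before the start of *Lhfpl3*, which was carried by P7 lineage cells of both regions, and of *Pcp4*, which differed between the regions, are shown in 5′ to 3′ direction. Capitals mark an E-box (letters CANNTG), the core bound by basic helix-loop-helix factors such as OLIG2.

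Lhfpl3 promoter, plus strand, chr5:22745804-22746053: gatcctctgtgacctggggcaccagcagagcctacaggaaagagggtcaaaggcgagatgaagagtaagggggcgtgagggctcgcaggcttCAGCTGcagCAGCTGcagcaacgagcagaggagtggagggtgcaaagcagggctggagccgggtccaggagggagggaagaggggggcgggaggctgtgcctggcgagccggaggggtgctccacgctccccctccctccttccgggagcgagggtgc
Pcp4 promoter, plus strand, chr16:96467356-96467605: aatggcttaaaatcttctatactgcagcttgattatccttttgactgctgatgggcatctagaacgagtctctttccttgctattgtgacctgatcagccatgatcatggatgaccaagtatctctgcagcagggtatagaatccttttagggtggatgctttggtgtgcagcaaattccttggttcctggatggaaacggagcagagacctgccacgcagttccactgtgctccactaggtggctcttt

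The *Lhfpl3* window had 67.2% G and C and held 2 E-boxes. The *Pcp4* window had 46.8% G and C and held no E-box, no SOX-type letters (ACAAAG or ACAATG on either strand), no TATAAA and no GGGCGG. Among 32851 promoter windows of the same length the median was 52.4% G and C, 66.22% held an E-box, and 25.24% held SOX-type letters. The windows of *Pllp* (2 E-boxes) and *Gatm* (1) held an E-box too, as did 1 of the 2 windows of *Plekhb1*. These matches describe letters only.

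*Lhfpl3* (5: 22746059 to 23275597, plus strand, GENCODE M21 on GRCm38) encodes a tetraspan membrane protein of the LHFPL family. On the 6 chips of E13.5 brain it ranged from 0 to 26.5 CPM with a median of 8.03 CPM, and on the 3 chips of E13.5 spinal cord it read 5.1, 7.9 and 10.8 CPM. P7 brain chips stood at 571 and 781 CPM, and P7 spinal cord chips at 400, 476, 530, 592 and, on chip 23, 35.5 CPM. Every P7 chip lay above every E13.5 chip, but the level of chip 23 is 2 molecules in 1 cell, below the 53.2 CPM that 3 molecules would give there. Traced brain chips covered 342 to 1112 CPM (median 471) for txE12.5 and read 531, 702 and 968 CPM for txP3. Pooled over chips, *Lhfpl3* went from 9 molecules at E13.5 to 179 at P7 in brain, an 83.9-fold ratio of CPM (95% interval 43.2 to 187, counting error only). In spinal cord the ratio was 65.4 (32.9 to 152), and 69.1 without chip 23.

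*Pllp* (8: 94674894 to 94696278, minus strand) encodes plasmolipin, a proteolipid with a MARVEL domain found in myelin. It had no molecule in the 288 cells of E13.5 brain and 1 molecule in E13.5 spinal cord. At P7 it read 513 and 768 CPM in brain and 506, 665, 727 and 980 CPM in spinal cord, with 0 on chip 23. The P7 lineage-bearing chips were thus far above the E13.5 chips, by at least 240.6-fold in brain with 3 counts over the group as the floor, or 194-fold at the lower counting limit of the P7 molecules. In spinal cord 1 molecule stood against 706, a ratio of 775 (822 without chip 23) whose counting interval ran from 139 to 30649. Traced chips read 355 to 730 CPM (median 632) for txE12.5 and 837, 904 and 1082 CPM for txP3.

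*Plekhb1* (7: 100642892 to 100662414, minus strand) encodes a protein with a pleckstrin homology domain that sits on internal membranes. It had 3 molecules in E13.5 brain and 3 in E13.5 spinal cord, with no chip above 10.6 CPM. P7 brain chips stood at 145 and 215 CPM, and P7 spinal cord chips at 165, 275, 282, 408 and, on chip 23, 71.0 CPM. All P7 chips lay above all E13.5 chips, on chip 23 with 4 molecules in 1 cell. Traced chips covered 92.7 to 239 CPM for txE12.5 and 180 to 287 CPM for txP3. The pooled ratio was 67.5 (21.8 to 339) in brain and 106 (35.8 to 516) in spinal cord, there 111 without chip 23.

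*C1ql1* (11: 102939264 to 102946688, minus strand) encodes a secreted C1q-like protein that binds the adhesion receptor Bai3 at synapses. At E13.5 it had 1 molecule in brain, on chip 3, and 4 in spinal cord, all on chip 7. P7 brain chips read 208 and 232 CPM, and P7 spinal cord chips 94.1, 125, 130, 167 and, on chip 23, 0 CPM. The brain chips lay above those of spinal cord. Traced chips covered 147 to 236 CPM for txE12.5 and read 179, 301 and 303 CPM for txP3. The pooled ratio of 236 in brain has an interval from 40.7 to 9501 because it rests on 1 embryonic molecule, and in spinal cord it was 34.8 (13.3 to 130), and 37.0 without chip 23.

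*Gatm* (2: 122594467 to 122611303, minus strand) encodes the first enzyme of creatine synthesis. It ranged from 0 to 31.7 CPM (median 10.5) in E13.5 brain and from 0 to 11.9 CPM in E13.5 spinal cord. P7 brain chips stood at 852 and 982 CPM, and P7 spinal cord chips at 412, 499, 597, 618 and, on chip 23, 35.5 CPM. The 2 brain chips lay above all spinal cord chips. Traced chips covered 518 to 834 CPM for txE12.5 and 584 to 633 CPM for txP3, the narrowest range of any of the 8 genes in txP3 relative to its level. The pooled ratio was 45.9 (29.6 to 74.6) in brain and 70.2 (35.4 to 164) in spinal cord, there 74.2 without chip 23. Chip 6 held 16 of the 22 molecules of E13.5 brain, and the brain ratio would be higher without it.

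*Tmem100* (11: 90030348 to 90036508, plus strand) encodes a small membrane protein known from BMP and ALK1 signalling in endothelium. It was present on all 9 E13.5 chips, at 10.6 to 37.7 CPM in brain (median 28.8) and at 32.4, 39.6 and 61.7 CPM in spinal cord. P7 brain chips read 286 and 416 CPM, and P7 spinal cord chips 141, 192, 195, 199 and, on chip 23, 17.7 CPM. Chip 23 lay below all 3 E13.5 spinal cord chips. The pooled ratio was the lowest but for that of *Pcp4*, 11.1 (7.38 to 17.2) in brain and 3.89 (2.82 to 5.43) in spinal cord, there 4.10 without chip 23. Traced chips covered 201 to 291 CPM for txE12.5 and 287 to 333 CPM for txP3.

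*3110035E14Rik* (1: 9601199 to 9627143, plus strand), named *Vxn* in the annotation, encodes vexin, a small protein described in neurogenesis. It was the most abundant of the 8 genes at P7, at 1752 and 2101 CPM in brain and 1589, 1856, 1944 and 2457 CPM in spinal cord, with 0 on chip 23. At E13.5 it ranged from 0 to 42.5 CPM in brain (median 1.98) and read 7.9, 20.6 and 32.4 CPM in spinal cord. Traced chips covered 998 to 1893 CPM for txE12.5 (median 1313) and read 1589, 1702 and 1860 CPM for txP3. The pooled ratio was 266 (134 to 619) in brain and 113 (71.4 to 191) in spinal cord, there 120.1 without chip 23.

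*Pcp4* (16: 96467606 to 96525793, plus strand) encodes a small calmodulin-binding protein best known from Purkinje cells. In brain it went from 0 to 42.5 CPM at E13.5 (median 16.0) to 96.8 and 156 CPM at P7, a pooled ratio of 10.3 (5.36 to 20.7). In spinal cord the stages stood the other way. The E13.5 chips read 48.9, 59.5 and 178 CPM and the P7 chips 0, 3.5, 9.3, 20.7 and, on chip 23, 0 CPM, a pooled ratio of 0.134 (0.0619 to 0.259), and 0.142 without chip 23. The description of the 8 genes as switched on after birth therefore went against the spinal cord data for *Pcp4*. Traced brain chips carried 39.3 to 124 CPM for txE12.5 (median 94.2) and 95.5 to 122 CPM for txP3.

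Both P7 brain chips lay above all 6 E13.5 brain chips for 8 of the 8 genes, as they did for 9.38% of all genes detected. In spinal cord this held for 3 of the 8 with chip 23 (*Lhfpl3*, *Plekhb1* and *Gatm*, with 2, 4 and 2 molecules on chip 23; 3.43% of all genes) and for 7 without it (all but *Pcp4*; 10.6%). All 9 traced chips lay above the E13.5 brain chips for 7 of the 8, again all but *Pcp4* (3.17% of all genes). Because the genes were chosen on this step, nothing is read from these counts.

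**Figure D1:**
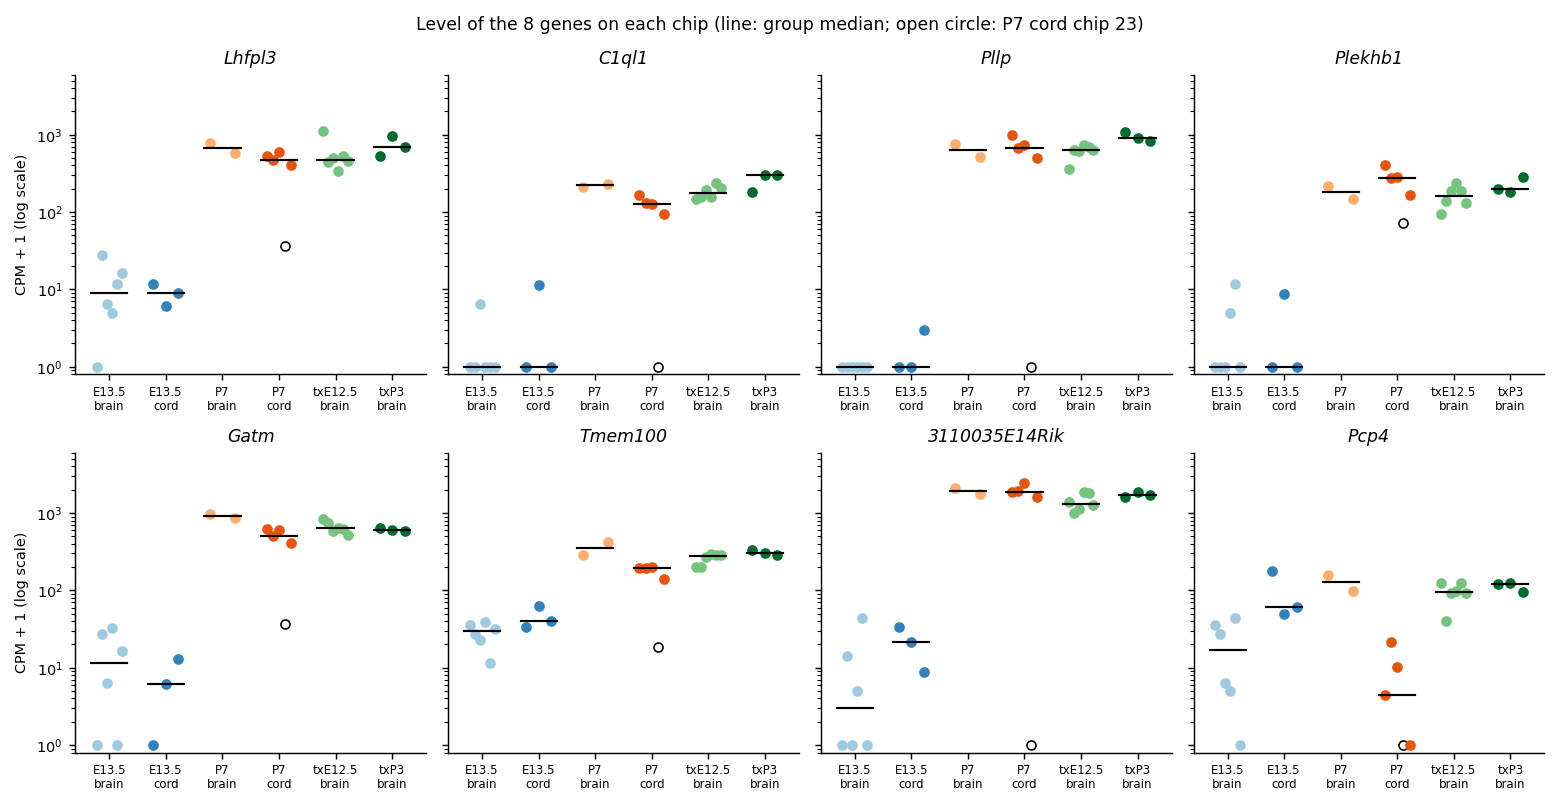
Level of each of the 8 genes on each chip, as CPM + 1 on a log scale, by group; each point is a chip, the line is the group median and the open circle is P7 spinal cord chip 23. The E13.5 chips sit at or near the floor for *Pllp* and *C1ql1*, while *Pcp4* in spinal cord is higher on the E13.5 chips (48.9 to 178 CPM) than on the P7 chips (0 to 20.7 CPM).

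The few embryonic molecules were unevenly spread over cell classes. The E13.5 cells fell into 228 Neuron-like and 221 VLMC-like cells, 34 cells of a cluster led by *Ttr*, and 3 OPC-like cells. *Tmem100* was carried by VLMC-like cells, with 81 of its 83 molecules in 49 of these 221 cells, and *Gatm* likewise with 23 of 30. *Pcp4* had 84 of its 96 molecules in 11 Neuron-like cells, of which 1 cell on spinal cord chip 4 held 32. *3110035E14Rik*, with 19 of 26 molecules, and *Lhfpl3*, with 12 of 17, were also mostly in Neuron-like cells. The 3 OPC-like cells of E13.5 held 1 molecule of *Plekhb1* and 1 of *Gatm*, and none of the other 6 genes.

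The number of the 8 genes seen in a cell follows from the levels on which they were chosen and is given as a description. To compare cells of unequal depth, each was thinned to 1000 molecules. An E13.5 cell then showed on average 0.0885 of the 8 genes and 444 of the 486 cells showed none, against an average of 2.55 in P7 cells. Resting OPC-like cells of P7 showed 3.07 genes, cycling OPC-like cells 2.41, COP-like cells 2.71 and NFOL-like cells 1.92. Only 9 of the 413 resting OPC-like cells showed none, and 68.52% showed at least 3. Without thinning the averages were 4.58 in resting OPC-like cells, at a median of 2530 molecules, and 0.274 in E13.5 cells. VLMC-like cells showed 0.736 at P7 and 0.0996 at E13.5. At P7 this differed between groups of chips. None of the 17 VLMC-like cells of spinal cord showed any of the 8 genes after thinning, but 13 of these cells were on chip 23. The 54 VLMC-like cells of txE12.5 brain showed 0.963 on average.

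**Figure D2:**
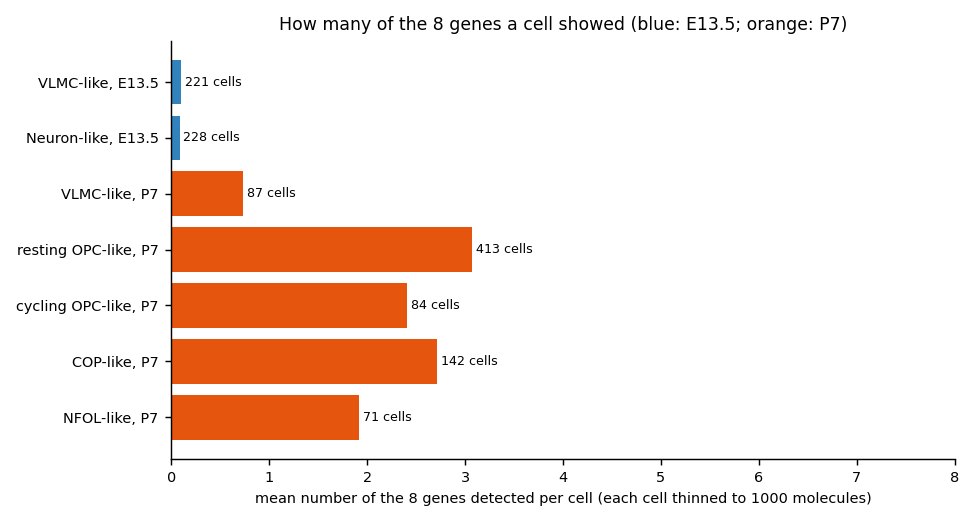
Mean number of the 8 genes detected per cell, each cell thinned to 1000 molecules, by cell class and stage. Bars of P7 lineage classes run from 1.92 (NFOL-like) to 3.07 (resting OPC-like), and the E13.5 bars stay below 0.1.

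The 8 genes differed in where along the lineage they stood highest. The classes were named from clusters built without these genes, and the levels per class are given as a description, over chips with at least 5 cells of a class. The classes differed in origin, with 51 of the 71 NFOL-like but 42 of the 413 resting OPC-like cells from spinal cord. Pooled over groups, *Lhfpl3*, *C1ql1* and *Tmem100* stood highest in resting OPC-like cells, although in txE12.5 *Tmem100* read 351 CPM in cycling and 312 CPM in resting OPC-like cells. Pooled *Lhfpl3* went from 879 CPM in resting OPC-like cells over 710 in cycling OPC-like and 426 in COP-like to 180 CPM in NFOL-like cells. Its level in COP-like cells was below that in resting OPC-like cells on 10 of 10 chips that had both (medians 457 and 933 CPM).

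*C1ql1* went from 303 CPM in resting OPC-like to 133 in COP-like and 53.7 in NFOL-like cells, and *Tmem100* from 353 to 173 and 51.0 CPM. Both were lower in COP-like than in resting OPC-like cells on all 10 chips. *Pcp4* had pooled levels of 126, 38.2 and 8.06 CPM and was lower in COP-like cells on 8 of the 10, but 73 of the 142 COP-like cells were from spinal cord, where it was low in each of these classes (45.4, 5.43 and 3.33 CPM). In brain no single order held for *Pcp4*. COP-like against resting OPC-like cells read 17.1 against 209 CPM in P7 brain, 73.2 against 131 CPM in txE12.5 and 253 against 120 CPM in txP3, on 1, 10 and 10 molecules in the COP-like cells. Cycling OPC-like cells of txE12.5 read 171 CPM, and the 6 NFOL-like cells of P7 brain 142 CPM on 2 molecules.

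*Pllp* and *3110035E14Rik* stood highest in COP-like cells. *3110035E14Rik* had 1696 CPM in resting OPC-like, 2906 in COP-like and 1230 in NFOL-like cells. It was higher in COP-like than in resting OPC-like cells on 9 of 10 chips (medians 2932 and 1849 CPM), and higher in COP-like than in NFOL-like cells on 4 of 4 (medians 3224 and 1026 CPM). After thinning, 88.7% of COP-like, 78.7% of resting OPC-like and 47.9% of NFOL-like cells had a molecule of it.

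*Pllp* had 786 CPM in resting OPC-like, 1009 in COP-like and 814 in NFOL-like cells, and was higher in COP-like than in resting OPC-like cells on 10 of 10 chips (medians 1020 and 750 CPM). Between NFOL-like and COP-like cells the 4 chips were split 2 to 2. *Pllp* was also the gene that was higher in resting than in cycling OPC-like cells on all 12 chips with both (medians 773 and 630 CPM). The other 7 genes were higher in resting cells on 8 to 10 of the 12.

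*Plekhb1* had pooled levels of 224 CPM in resting OPC-like, 267 in COP-like and 352 in NFOL-like cells. The order did not hold within spinal cord (447, 269 and 340 CPM) or from chip to chip. It held in pooled P7 brain (157, 257 and 498 CPM) and txE12.5 (164, 264 and 399 CPM), on 6 and 13 NFOL-like cells. The 1 NFOL-like cell of txP3 held no *Plekhb1*. On 0 of 3 chips, all of spinal cord, was *Plekhb1* higher in NFOL-like than in resting OPC-like cells (medians 346 and 490 CPM). *Plekhb1* was higher in COP-like than in resting OPC-like cells on 4 of 10 chips, and higher in NFOL-like than in COP-like cells on 2 of 4. *Gatm* had 774, 576 and 642 CPM in the same classes, and was lower in COP-like than in resting OPC-like cells on 8 of 10 chips.

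VLMC-like cells of P7 also held molecules of 7 of the 8 genes. In the 87 cells *Gatm* was at 337 CPM and *Tmem100* and *3110035E14Rik* at 211 CPM each, and they were higher there than in resting OPC-like cells on 2, 1 and 0 of 6 chips. *C1ql1* had 3 molecules and *Pcp4* none in these cells. The pooled levels cover unlike groups. *Gatm* read 1093 CPM in the 9 VLMC-like cells of P7 brain, 348 CPM in txE12.5 and 45.9 CPM in the 17 of P7 spinal cord. Of those 17 cells 13 were on chip 23, and the spinal cord levels of this class without it were not computed. In P7 brain and P7 spinal cord, *Tmem100* read 342 and 30.6 CPM and *3110035E14Rik* 68.3 and 15.3 CPM. After thinning, 18.4% of VLMC-like cells had a molecule of *Gatm*, 19.5% of *Tmem100*, 17.2% of *3110035E14Rik*, 8.05% of *Lhfpl3* and 6.90% of *Pllp*. The median depth was 3000 molecules in VLMC-like and 2530 in resting OPC-like cells.

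**Figure D3:**
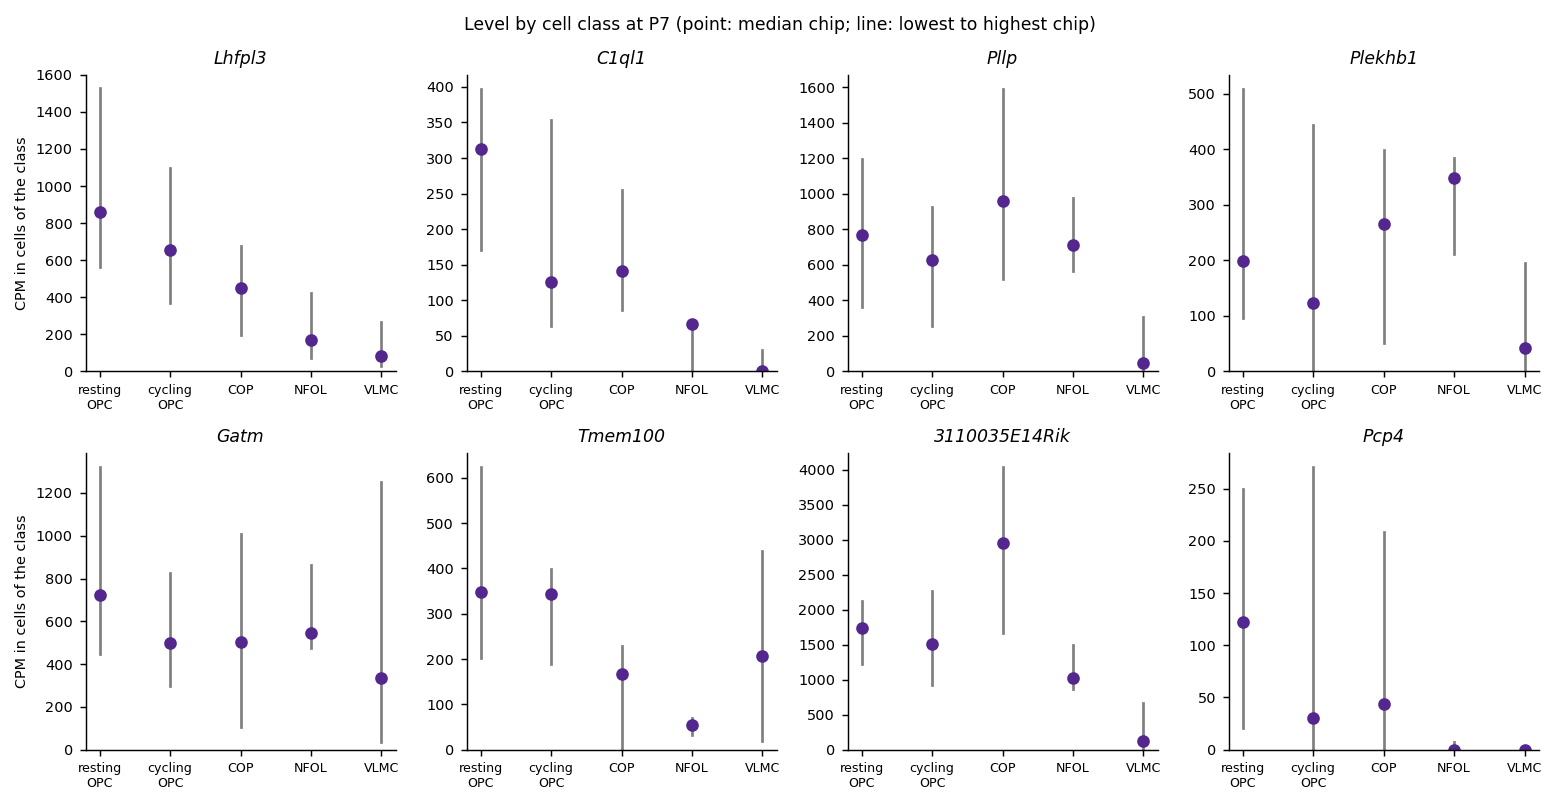
Level of the 8 genes in each cell class at P7 in CPM; the point is the median chip and the line runs from the lowest to the highest chip, over chips with at least 5 cells of the class. *Lhfpl3* and *Tmem100* step down from resting OPC-like to NFOL-like cells, and *3110035E14Rik* peaks in COP-like cells (1673 to 4042 CPM). *C1ql1* is lower in NFOL-like than in resting OPC-like cells, but its median is 125 CPM in cycling OPC-like and 141 CPM in COP-like cells. The NFOL-like points come from 4 chips, all of spinal cord.

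Likeness between genes over chips was described by Pearson's r of log2(CPM + 10) among 4602 genes. The points share chip composition and depth, so no p is given. Over the 16 P7 chips, *Lhfpl3* ran closest to *Olig2* (r = 0.98), *Pcdh11x* and *Olig1*, *Pcp4* to *Pdgfra* (0.93), and *Pllp* and *3110035E14Rik* to *Cadm4* (0.99 and 0.98). *Tmem100* ran closest to *Scrg1* (0.97), *C1ql1* to *Gpr37l1* (0.97), *Gatm* to *Omg* (0.98) and *Plekhb1* to *Hmgcs1* (0.86), an enzyme of the sterol pathway.

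Most of these likenesses rested on chip 23, which is low for most of the genes. Without it, over 15 chips, the closest genes became *Mrps28* for *Pllp* (0.80), *Ipo5* for *3110035E14Rik* (0.81), *Rpain* for *Tmem100* (0.91), *Emid1* for *C1ql1* (0.85), *Blcap* for *Gatm* (0.85) and *Deb1* for *Plekhb1* (0.85). The value of *Pllp* with *3110035E14Rik* went from 0.97 to 0.35. *Olig1* (0.91) and *Olig2* (0.87) were still the closest to *Lhfpl3*, and *Pcp4* ran closest to *Brinp3* (0.96) and then *Pdgfra* (0.92). Among the 8 genes themselves, the closest pairs were then *Tmem100* with *Pcp4* (0.79) and *C1ql1* with *Tmem100* (0.78). *Pllp* with *Plekhb1* followed at 0.71, and *Plekhb1* with *Pcp4* ran in opposite directions (-0.42).

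Spinal cord and brain were then compared at P7. The genes were chosen for a high P7 level in no named region, so a gene could enter through the region where it was high. *Pcp4*, which was high at P7 in brain alone, had to differ in this way, and its tests between the regions at P7 are not independent of the choice. Over all cells of 5 against 2 chips, 0 of the 8 genes passed an adjusted p (FDR) of 0.05 by edgeR, beside 0.0206% of the 4854 genes tested. DESeq2 called 0 of the 6 for which it gave an adjusted p, beside 3.05% of 951 genes. Without the filter on low counts *Pcp4* was called (-3.58, FDR 0.0159), 1 of the 8 beside 0.143% of 13975 genes. At an unadjusted p under 0.05, edgeR had 522 genes. With chip 23, 7 of the fitted values were lower in spinal cord and 1 was higher, with a median log2 fold change of -0.82 against 0.0067 over all genes. The median was -0.60 with 6 lower and 2 higher both without chip 23 and in lineage cells, and -0.39 for the 7 genes tested in OPC-like cells. *Pcp4* was furthest, at -3.70 (SE 0.81, 95% interval -5.50 to -1.90, FDR 0.24), followed by *Tmem100* at -1.13 (SE 0.50, FDR 0.46) and *Gatm* at -1.05 (SE 0.61, FDR 0.57).

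These values contain chip 23, with 0 lineage cells of its 14. Without it, 6.69% of 5189 genes were called, among them *Pcp4* (-3.59, SE 0.69, FDR 0.00415) and *Gatm* (-0.80, SE 0.21, FDR 0.0274). The chips of the 2 regions did not overlap for *C1ql1*, *Gatm*, *Tmem100* and *Pcp4*, 4 of the 8, with chip 23 (13.3% of all genes) and without it (22.5%). Against all 11 P7 brain chips, traced ones included, this held for *Tmem100* and *Pcp4* (2.28% of all genes).

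Restricting the sums to lineage cells, an alternative added after seeing the data, removed chip 23. For *Pcp4* the tests in these sums too are not independent of how the genes were chosen, and are given as a description. *Pcp4* read 116 and 170 CPM in the lineage cells of P7 brain and 0, 3.5, 9.3 and 21.0 CPM in those of spinal cord. *Pcp4* fell by 3.69 on the log2 scale in spinal cord (SE 0.67, FDR 0.0012), the 1 of the 8 that was called beside 6.6% of 5030 genes. It kept its call without any 1 chip except brain chip 21 (-3.36, FDR 0.141). With the 9 traced brain chips added to the brain group, *Pcp4* fell by 3.45 (SE 0.42, FDR 7.39e-07). The 11 brain chips then read 52.5 CPM or more. The share of all genes without overlap was not counted in lineage cells. Over all cells without chip 23 it was 22.5% against P7 brain and 2.28% against all 11 brain chips.

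The region held a different mix of the lineage, which moves with these values. COP-like and NFOL-like cells numbered 124 of the 187 lineage cells of P7 spinal cord and 25 of 93 in P7 brain. Within resting and cycling OPC-like cells alone, *Pcp4* stood at 116 and 253 CPM in brain and at 0, 13.8, 15.6 and 60.7 CPM in spinal cord. It was below the filter on low counts there. Without the filter it fell by 2.75 (SE 0.74, FDR 0.0398), beside 0.606% of 12206 genes. That call was lost without spinal cord chip 10 (-2.55, FDR 0.171) or 12 (-2.54, FDR 0.26) and without brain chip 21 (-2.03, FDR 0.797) or 22 (-3.18, FDR 0.0626). *Pcp4* passed the filter and was called in cells of at least 2000 molecules (-4.06, FDR 0.0244, beside 3.2% of 2031 genes) and with clusters of resolution 2.0 (-3.18, FDR 0.0249, beside 5.13% of 2126 genes).

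*Gatm* in lineage cells stood at 774 and 991 CPM in brain and at 461, 506, 597 and 618 CPM in spinal cord (log2 fold change -0.67, SE 0.21, FDR 0.0565). In OPC-like cells it read 891 and 971 CPM in brain and 433, 449, 545 and 635 CPM in spinal cord. Its log2 fold change was -0.91 (SE 0.30, FDR 0.0617), which edgeR did not call. DESeq2 called it (-0.92, FDR 0.0221), beside 16.0% of the 611 genes with an adjusted p. With clusters of resolution 0.5 or 2.0, edgeR called it too (-0.95 and -1.01, beside 4.7% and 5.13% of genes). The traced brain chips narrow this gap. In lineage cells they carried *Gatm* at 518 to 905 CPM, so that brain and spinal cord overlapped.

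*Tmem100* and *C1ql1* were lower in spinal cord lineage cells by -0.86 (SE 0.28, FDR 0.0658) and -0.88 (SE 0.33, FDR 0.104). With the traced chips in the brain group both were called, *Tmem100* at -0.64 (FDR 0.0332) and *C1ql1* at -0.89 (FDR 0.0077), 3 of the 8 with *Pcp4* beside 15.1% of 4386 genes. In OPC-like cells the differences were -0.39 (95% interval -1.12 to 0.34) and -0.47 (-1.29 to 0.35), neither of which was called. Leaving out single chips could turn the sign for *Tmem100* there. *Tmem100* and *C1ql1* both stood lower in COP-like and NFOL-like cells, and the part of the cell mix in their difference was not tested.

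*Lhfpl3* was called in none of these comparisons. In lineage cells it stood at -0.53 (interval -0.98 to -0.09, FDR 0.137). In OPC-like cells it read 776 and 1035 CPM in brain and 996, 996, 1089 and 1243 CPM in spinal cord, a log2 fold change of 0.17 with an interval from -0.38 to 0.73. *Pllp* was at 0.05 in lineage cells (-0.43 to 0.54) and -0.12 in OPC-like cells (-0.79 to 0.55), and *3110035E14Rik* at -0.09 (-0.47 to 0.29) and -0.50 (-0.99 to -0.01, FDR 0.28). *Plekhb1* was at 0.58 in lineage cells (FDR 0.29) and 0.92 in OPC-like cells (SE 0.46, FDR 0.28), the latter 0.54 without brain chip 21 and 1.28 without chip 22. In OPC-like cells without the cycling ones it was called (1.48, SE 0.47, FDR 0.0383, beside 5.3% of 1302 genes), over 3 spinal cord chips. Of the 7 genes tested in OPC-like cells, 0 were called by edgeR with all OPC-like cells, beside 5.04% of 2062 genes, of which 360 had an unadjusted p under 0.05.

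**Figure D4:**
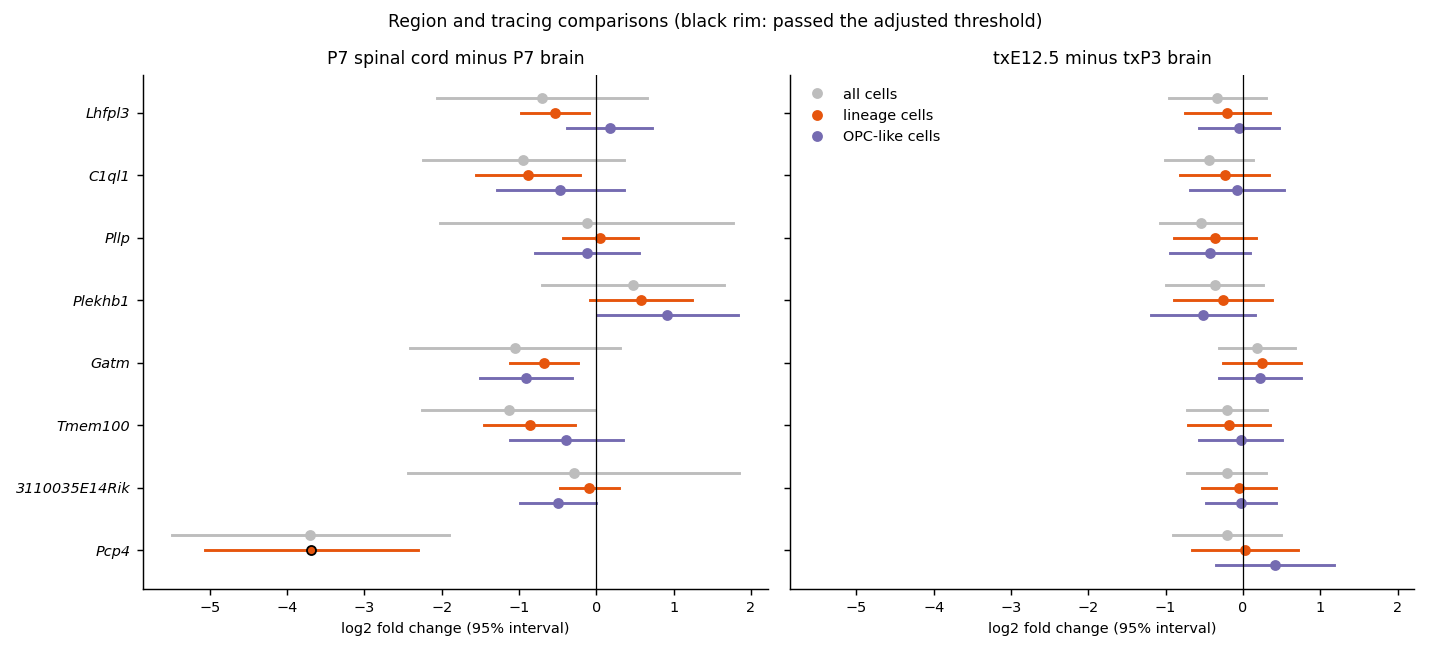
Log2 fold changes of the 8 genes with 95% intervals for the region comparison at P7 and the tracing comparisons; points with a black rim passed the adjusted threshold. *Pcp4* in spinal cord lies furthest from 0 (-3.70 over all cells and -3.69 in lineage cells), and the tracing values stay between -0.55 and 0.41.

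At E13.5 none of the 8 genes passed the filter on low counts between spinal cord (3 chips) and brain (6 chips), where 2.26% of 5169 genes were called. Without the filter *Pcp4* stood higher in spinal cord, with a log2 fold change of 2.67 (SE 0.59, 95% interval 1.52 to 3.83, FDR 0.00072), 1 of the 8 called beside 1.89% of 15223 genes. The genes were picked for near absence at E13.5, so this test is not independent of the choice and nothing is concluded from it. The values of *Pcp4* are given as a description. Its chips, at 48.9 to 178 CPM against 0 to 42.5 CPM, did not overlap, as for 3.98% of all genes. The call rested on few cells. Chip 9, which entered no group, held 95 molecules of *Pcp4* in 11 of its 72 cells (139.7 CPM). The call was lost without spinal cord chip 4 (1.94, FDR 0.28), without the single cell that held 32 molecules (1.51, FDR 0.391) and by DESeq2 (2.53, FDR 0.08, beside 1.57% of 11089 genes called). The regional lean of *Pcp4* thus had opposite signs at the 2 stages, both in values on which the genes were chosen. The difference between the stages was not tested.

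The tracing groups ask whether brain cells labelled in the embryo and cells labelled after birth reach the same state by P7. The txP3 chips came from 1 experiment and the txE12.5 chips from 2 others, so age at labelling and experiment cannot be told apart. Between txE12.5 (6 chips) and txP3 (3 chips), edgeR and DESeq2 each called 0 of the 8 genes, beside 0.202% of 4952 genes by edgeR, of which 418 had an unadjusted p under 0.05, and 0.297% of 9100 genes by DESeq2. The 8 genes had a median of -0.27, against 0.01 for all genes. Their median was -0.19 in lineage cells and -0.04 in OPC-like cells. Over all cells it was -0.46 and -0.12 with the chips of either txE12.5 experiment alone. *Pllp* was lower in txE12.5 (-0.55, SE 0.25, interval -1.07 to -0.02, unadjusted p 0.041, FDR 0.56), and it was the 1 gene of the 8 whose chips did not overlap (2.79% of all genes). Within the 2 txE12.5 experiments *Pllp* stood at -0.72 and -0.41.

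The remaining values ran from -0.44 (*C1ql1*, interval -1.01 to 0.13) to 0.18 (*Gatm*, -0.31 to 0.67). *Lhfpl3* differed by -0.33 (-0.96 to 0.30) and *3110035E14Rik* by -0.21 (-0.72 to 0.30). Lineage cells made up 79.75% of txE12.5 and 96.05% of txP3 cells, and in lineage cells alone *Pllp* was at -0.36, again with no call among the 8 (0.309% of 4206 genes). Without the filter on low counts none of the 8 was called either (1.08% of 14871 genes).

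Between the tracing groups in OPC-like cells, edgeR called 0 of the 8, beside 0.057% of 3510 genes, with 147 genes at an unadjusted p under 0.05, and DESeq2 called 0 genes in all. Without the filter edgeR called none of the 8 (0.064% of 14056 genes). *Lhfpl3* (-0.05, interval -0.56 to 0.47), *C1ql1* (-0.08, -0.68 to 0.53), *Tmem100* (-0.03, -0.57 to 0.51) and *3110035E14Rik* (-0.02, -0.48 to 0.43) were near 0. The widest were *Plekhb1* at -0.52 (-1.19 to 0.15) and *Pcp4* at 0.41 (-0.35 to 1.18). These intervals leave room for differences of about 1 log2 unit in *Plekhb1* and *Pcp4*.

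The traced chips (9) were set against the H2BGFP brain chips of P7 (2) to see whether the line mattered for the levels above. By edgeR 0 of the 8 genes were called, beside 0.0534% of 5620 genes, of which 447 had an unadjusted p under 0.05. DESeq2 called 0 of the 7 with an adjusted p, beside 1.83% of 1915 genes. By edgeR none was called without the filter (0.0866% of 15015 genes) or in lineage cells (0.387% of 5170 genes). *Gatm*, at -0.48 (SE 0.25, interval -0.995 to 0.03, FDR 0.64), was the 1 gene of the 8 without overlap (4.92% of all genes), and the others lay between -0.34 and 0.20. Line, strain and experiment cannot be told apart in this comparison.

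Relatives and partners of the 8 genes, 45 in 7 lists, did not share the step between stages as a rule. Both P7 brain chips lay above all E13.5 brain chips for 2 of 7 C1q-like genes and their receptor, *C1ql3* (median 0 to 82.5 CPM) and the receptor *Bai3* (14.9 to 85.9 CPM). The same held for 2 of 7 MARVEL genes, *Cmtm5* (0 to 74.6 CPM) and *Cmtm6* (12.1 to 71.3 CPM), and for 1 of 5 creatine genes, the brain creatine kinase *Ckb* (530 to 1440 CPM). No gene of the LHFPL family (5), the BMP and ALK1 list (12) or the calmodulin list (8) did so, nor did *Plekhb2*. In all it held for 5 of the 45 relatives (11.1%), beside 9.38% of the genes detected in brain at either stage. The bases differ, as the 45 include genes without a molecule on those chips, such as *Lhfpl1* and *Ckm*.

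In the region and tracing comparisons of all P7 cells no relative was called by edgeR (0 of 19 and 0 of 20 tested, with 1 and 3 at an unadjusted p under 0.05). In lineage cells *Id2*, a target of BMP signalling that holds back differentiation, was called between the tracing groups, lower in txE12.5 (-1.25, FDR 0.0326, beside 0.309% of all genes). Among OPC-like cells, the calmodulin gene *Calm2* (log2 fold change 1.39, FDR 0.00359) and *Gap43*, which binds calmodulin in growing axons (1.55, FDR 0.00814), were higher in spinal cord. They were 2 of the 8 relatives tested there, beside 5.04% of all genes. At E13.5, *Cbln1*, a secreted C1q-like protein of synapses, was higher in spinal cord (1.95, FDR 0.0345), 1 of 20 tested, beside 2.26% of all genes.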

How the data were processed

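The authors deposited, for each of 26 chips of 96 wells, whole-number counts of molecules per gene symbol and well, not normalized; mm10 is named in the submitters' processing notes and the aligner is not given in the sources used here. The 8 genes, the gene lists and the tests were chosen with earlier results of these data known. Of 2496 wells, 1514 had at least 1000 molecules outside spike-in and mitochondrial genes, where the study states 1514 cells after quality control. Chips were grouped by their labels, and chip 9, whose labels disagree on the stage, entered no comparison; the study's numbers of spinal cord chips per stage are met if it is E13.5. Of 1436 cells on the 25 assigned chips, 139 were left out as doublets (2 or more genes and 3 or more molecules of each of 2 marker sets, which were narrowed after seeing how many wells wider sets marked). The study's own calls of doublets and cell types were not used here.

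Counts without the 8 genes were scaled to 10000 per cell and clustered (scanpy 1.11.5, leidenalg 0.10.2; genes in at least 3 cells, 2000 variable genes, 30 principal components, 15 neighbours, resolution 1.0, seed 1). This gave 12 clusters, named from marker lists with a minimum of 20 CPM, a pseudocount of 50 CPM and a score of at least 0.3. Clusters named here need not match those of the study. Molecules were summed per chip, also over lineage cells (OPC-like, COP-like and NFOL-like) and over OPC-like cells, on chips with at least 5 cells. The sums were tested with edgeR 4.0.16 in R 4.3.3 (TMM, filterByExpr, quasi-likelihood F-test, two-sided, Benjamini-Hochberg adjustment over all genes tested, threshold 0.05). DESeq2 1.42.0, no filter, doublets kept, 2000 molecules per cell, resolutions 0.5 and 2.0, no cycling cells and leaving out each chip were alternatives. Intervals are 95%, those of pooled ratios cover counting error only, and a floor is 3 counts. The test was also tried on simulated data. Genes named are the 8, their relatives (those called or at most 3 per list) and, for each, the 3 genes with the highest r among those of at least 50 CPM on average, with a pseudocount of 10 CPM. A result that the lists cover is not reported here. Python 3.11.15 with numpy 2.4.6, scipy 1.17.1, pandas 2.3.3 and matplotlib 3.10.9 was used.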

Additional observations from a re-analysis of the deposited data

Results flagged for a closer look

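In 24 sets of 4 to 10 chips of a group, 1 per gene and group, 5 held a chip far from the others. The rule flags about 1 in 20 sets of normally spread values. A set with molecules on only 1 chip is always flagged, so 5 of 24 is not read as an excess. *Lhfpl3* stood at 1112 CPM on txE12.5 chip 5, against 528.3 on the next chip, and *Pllp* at 355.3 CPM on the same chip, against 618.5 on the next. That chip had 12862 CPM of summed OPC markers and 726 CPM of summed VLMC markers, where the other txE12.5 chips had 5355 to 8572 and 2741 to 8738 CPM. In E13.5 brain, *C1ql1* stood at 5.428 CPM on chip 3 (0 on the others), and on chip 24 *Plekhb1* stood at 10.62 CPM (next 3.964) and *3110035E14Rik* at 42.5 CPM (next 13.25). Each of these 3 rests on 4 molecules or fewer.

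*Pcp4* had opposite signs between spinal cord and brain at the stages, a log2 fold change of 2.67 at E13.5 without the filter and -3.7 at P7. This difference was not tested, and neither value is independent of how the genes were chosen.

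On chip 9, which the labels put in no group, *Pcp4* stood at 139.7 CPM, *Tmem100* at 29.41, *3110035E14Rik* at 16.17 and *Gatm* at 13.23 CPM. None of its 72 cells was of the OL lineage.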

How the results depend on the processing

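No paired analysis was possible because no experiment held assigned chips of more than 1 group. Of 601 log2 fold changes of the 8 genes under alternatives, 532 kept their direction and side of the threshold. In P7 spinal cord against brain, the count of genes called went from 1 to 20 without the filter, 29 with DESeq2, 332 in lineage cells and 664 with traced chips added. It was 0 without any 1 of the chips 10, 11, 12, 26, 21 and 22 and 347 without chip 23. Leaving out chips, *Pllp* ranged from -0.42 to 0.20, *Gatm* from -1.23 to -0.80 and *Pcp4* from -4.61 to -3.40. *Pllp* turned to 0.052 in lineage cells and *3110035E14Rik* to 0.16 with traced chips added. For txE12.5 against txP3 the count went from 10 to 160 without the filter, 27 with DESeq2, 40 with doublets kept, 0 at 2000 molecules per cell and 41 with chips 15 to 17 alone, and from 0 to 79 without single chips (79 without chip 5). *3110035E14Rik* turned to 0.0087 with chips 15 to 17 and *Pcp4* to 0.023 in lineage cells. For traced against H2BGFP brain the count went from 3 to 13 without the filter, 35 with DESeq2, 20 in lineage cells and 6 at 2000 molecules, and from 0 to 21 without single chips. There *Lhfpl3* turned to 0.083 at 2000 molecules and *Plekhb1* to -0.057 with doublets and -0.0032 at 2000 molecules. Without single chips *Lhfpl3* ranged from -0.35 to 0.13, *C1ql1* from -0.13 to 0.022, *Pllp* from -0.078 to 0.54, *Plekhb1* from -0.22 to 0.38 and *Pcp4* from -0.64 to 0.08. At E13.5 the count went from 117 to 288 without the filter, and from 64 to 133 without single chips.

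Between the regions in OPC-like cells the count went from 104 to 65 at 2000 molecules and 69 without cycling cells, and from 31 to 130 without single chips. *Lhfpl3* turned to -0.067 at resolution 2.0. Without single chips *Lhfpl3* ranged from -0.032 to 0.39, *Pllp* from -0.43 to 0.30, *Plekhb1* from 0.54 to 1.28, *Gatm* from -1.04 to -0.83 and *Tmem100* from -0.78 to 0.020, and *Pcp4*, when chips were left out, passed the filter without brain chip 22 (-3.21). *Gatm* was called without chip 10 or chip 26 and at both other resolutions, and *Pcp4* at 2000 molecules and at resolution 2.0. Between the tracing groups in OPC-like cells the count went from 2 to 9 without the filter, 0 with DESeq2, 4 with chips 5, 13 and 14 and 1 with chips 15 to 17 as txE12.5, and from 0 to 4 without single chips. *Lhfpl3* turned to 0.0011 at 2000 molecules, 0.042 at resolution 2.0 and 0.086 with chips 5, 13 and 14, *Tmem100* to 0.059 at resolution 2.0, and *3110035E14Rik* to 0.0039 at resolution 2.0 and 0.023 without cycling cells. With chips 15 to 17, *C1ql1* turned to 0.18, *Gatm* to -0.032, *Tmem100* to 0.16 and *3110035E14Rik* to 0.22. Without single chips *Lhfpl3* ranged from -0.24 to 0.15, *C1ql1* from -0.31 to 0.11, *Tmem100* from -0.12 to 0.084 and *3110035E14Rik* from -0.11 to 0.061. The causes were not tested. Without the filter the median of all genes moved from 0.0067 to 0.15 between the regions at P7 and from 0.04 to 0.25 between the lines. The embryonic levels of *Pllp*, *C1ql1* and *Plekhb1* rest on 1, 5 and 6 molecules in 486 cells, which widens the intervals of their ratios.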
